A study of Mus musculus with 4 samples.

Results

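The Schlafen family of the mouse was read by 13 probes for 7 genes, Slfn1, Slfn2, Slfn3, Slfn4, Slfn5, Slfn8 and Slfn9, of 25107 named genes on the array. The family was picked from results of these same 4 arrays, with its R848 and genotype differences known, so those differences describe it and test nothing. Its probes were found through the Entrez gene number in the authors' table or, for Slfn4, the transcript that the scanner files give. For 6 of the 7 genes the signal was well above background, at 12 probes and on all 4 arrays. Slfn4 was not well above background on any array. The values of all 13 probes on the 4 arrays are described here.

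Total RNA was measured on 1-colour (Cy3) Agilent arrays. It came from macrophages grown out of bone marrow of male C57BL/6J mice with macrophage colony-stimulating factor at 3 ng/ml and harvested on day 5. The 4 groups had 1 array each, namely Batf2-/- cells after 8 h with R848 at 100 ng/ml, Batf2-/- cells untreated, wild-type cells after 8 h with R848 at 100 ng/ml, and wild-type cells untreated. The Batf2 protein is a leucine zipper factor related to AP-1, and R848, also called resiquimod, is a synthetic agonist of TLR7, a receptor in endosomes that senses RNA. The labels give no mouse age and do not say whether cells of several mice were pooled for an array. With 1 array per group no difference below has a replicate check, and no p-value is given.

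Schlafen genes form a rodent-expanded family whose members share a Schlafen core domain with predicted nucleic acid binding activity. In mice they are sorted by protein length into a short group (Slfn1 and Slfn2), a middle group (Slfn3 and Slfn4) and a long group (Slfn5, Slfn8 and Slfn9), the last of which carries an added helicase-like domain. Many members are induced by type I interferon, which cells release after sensing nucleic acids and which acts back through its receptor on interferon-stimulated response elements (ISRE) in promoters. The family is known from studies of T cell quiescence and of macrophage activation.

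Signals are given relative to the 75th percentile of the array they come from, so that a value of 1 lies at that percentile. Differences are given on the log2 scale or as a fold of these relative signals, and "rose" and "fell" are used for a difference of at least 2-fold. On repeat spots of 1 probe, 10 per array, the spread of a difference had a median SD of 0.048 for the knockout response (291 probes) and 0.057 for the wild-type response (289 probes) on the log2 scale. Among dim probes, with an average relative signal under 0.5, it was 0.159 for the knockout response (12 probes) and 0.146 for the wild-type response (10 probes). This spread covers error within an array and leaves out variation between cultures. Between 60.6% and 71.4% of all probes were well above background, and the 75th percentile lay between 252 and 278 intensity units. The Batf2 probe read 10.8 units in knockout cells with R848, which was not well above background, and 26.7 in untreated knockout cells, against 94.8 in wild-type cells with R848 and 34.1 in untreated wild-type cells, which is at least 6.20-fold lower in the knockout with R848 and 1.21-fold lower untreated. The sources used here do not say whether the probe covers the sequence removed in the knockout. All 8 macrophage markers, such as Csf1r and Adgre1, were well above background on each array.

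**Figure D1:**
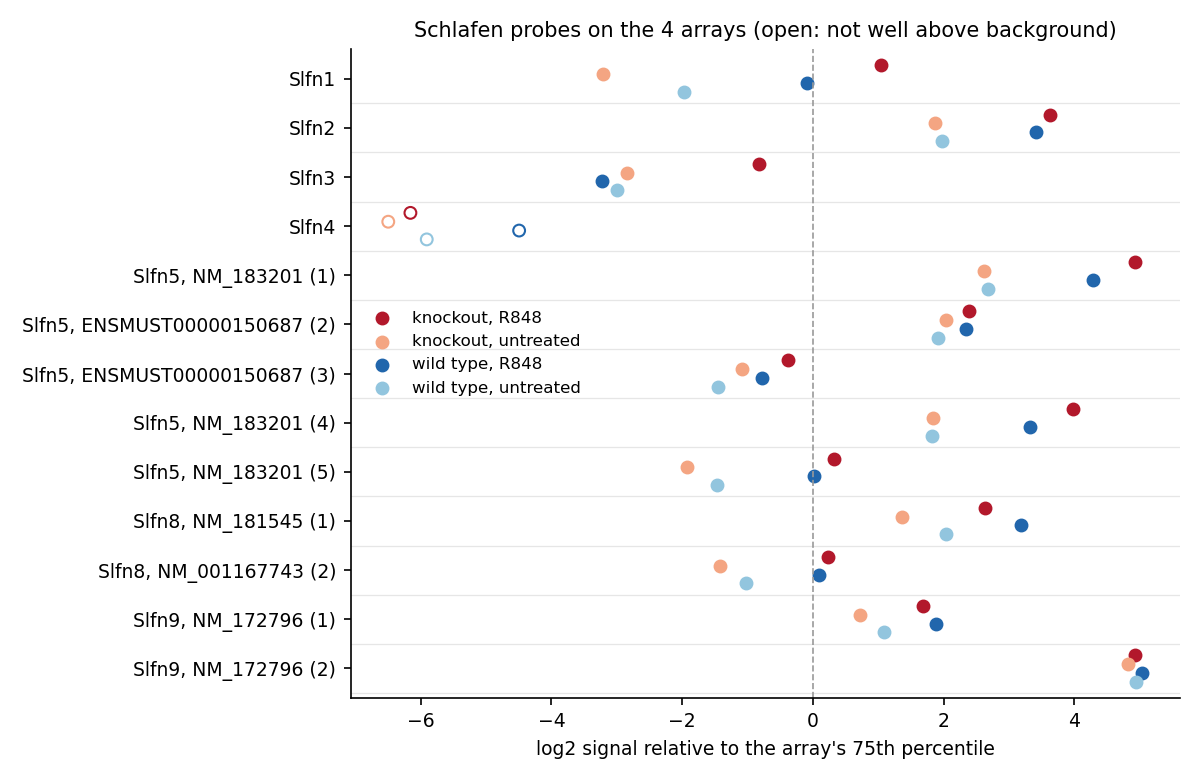
Log2 signal of the 13 Schlafen probes, relative to the 75th percentile of each array (dashed line at 0), with 1 point per array and open points where the probe was not well above background. The knockout array with R848 is the highest of the 4 at the probes of Slfn1, Slfn2, Slfn3 and Slfn5 and at the dimmer Slfn8 probe. It stands furthest above the next array for Slfn3 and Slfn1. The 4 points of the brighter Slfn9 probe lie close together.

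Most of the measured family was higher with R848 in both genotypes, and Slfn1 and Slfn3 differed most between genotypes. In knockout cells 5 of the 6 measured genes rose (Slfn1, Slfn2, Slfn3, Slfn5 and Slfn8) and 0 fell, with a median log2 difference of 1.89, beside 6.84% of 19840 genes that rose, 6.58% that fell and a median of -0.06 over all of them. In wild-type cells 4 of 6 rose (Slfn1, Slfn2, Slfn5 and Slfn8) and 0 fell, with a median of 1.29, beside 6.19% of 18762 genes that rose, 7.01% that fell and a median of -0.03. The genotypes shared the rise of 4 genes, and Slfn3 was the gene past 2-fold in knockout cells and not in wild-type cells. The share of all genes that rose in both genotypes was not counted, so this overlap only describes the members. The difference between the 2 responses was 2.36 for Slfn1 and 2.26 for Slfn3 on the log2 scale and at most 0.71 for the other 4 genes at their brightest probe. Over all genes 3.62% of 20627 had a response at least 2-fold larger on this scale in the knockout, and 4.18% at least 2-fold smaller. Under median centring in place of the 75th percentile, 1671 genes rose and 978 fell in knockout cells, where the 75th percentile gave 1357 and 1305, and 1515 rose and 969 fell in wild-type cells, where it gave 1162 and 1316.

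Promoters of the 7 genes, taken from RefSeq (GRCm38.p6) as 250 bases before to 50 after a transcript start, were searched on both strands for 3 motifs. These were the ISRE, written as GAAA, 2 bases of any kind and GAAA, the gamma-activated site (GAS) as TTCNNNGAA and the AP-1 site TGANTCA. All 7 members matched an entry, with 2 starts for Slfn8. The ISRE was found in the promoters of the 3 long members, Slfn5, Slfn8 and Slfn9, and in those of 3.99% of all 27025 genes (3.44% of all 32851 promoters). The GAS letters were found in none of the 7, against 9.55% of all genes (8.30% of promoters). The AP-1 letters were found in that of Slfn4 alone, against 8.97% of all genes (7.81% of promoters). No 2 of these matches overlapped.

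The ISRE windows are shown because the match is shared by the 3 long genes and by the copies Slfn8 and Slfn9. Each runs 5′ to 3′ along the strand of the gene with the match in capitals, at chr11:82951922-82951981 on the plus strand for Slfn5, chr11:83020824-83020883 on the minus strand for Slfn8 and chr11:82991841-82991900 on the minus strand for Slfn9.
Slfn5: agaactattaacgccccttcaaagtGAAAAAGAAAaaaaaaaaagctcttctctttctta
Slfn8: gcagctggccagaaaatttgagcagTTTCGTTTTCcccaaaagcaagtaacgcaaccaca
Slfn9: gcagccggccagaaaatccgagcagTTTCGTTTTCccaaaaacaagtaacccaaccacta
The ISRE runs against the strand of the gene in Slfn8 and Slfn9. It spans positions -155 to -146 from the transcript start used for Slfn5, -48 to -39 from the first start of Slfn8 and -45 to -36 in Slfn9. The Slfn5 window lies inside the annotated gene, chr11:82951349-82964850, downstream of its first base. Over 280 aligned columns the promoter of Slfn9 and that at the first start of Slfn8 were identical at 85.0%. Of the 3 genes, Slfn5 and Slfn8 rose with R848 in both genotypes and Slfn9 did not reach 2-fold.

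The promoters of Slfn1 to Slfn4 held no match to the ISRE, which says only that these letters are not in the windows searched. The 4 promoters shared another run of letters, ACTTCCTGG, which holds the GGAA core bound by ETS family factors on its other strand. It was picked after the promoters had been read, and it occurs in the promoters of 0.999% of all genes (0.843% of all promoters). The windows are shown because they group the short and middle genes apart from the long ones, with the string in capitals. They lie on the plus strand at chr11:83116721-83116780 for Slfn1, chr11:83065032-83065091 for Slfn2, chr11:83191263-83191322 for Slfn3 and chr11:83175088-83175147 for Slfn4.
Slfn1: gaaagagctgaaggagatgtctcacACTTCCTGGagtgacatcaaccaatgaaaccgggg
Slfn2: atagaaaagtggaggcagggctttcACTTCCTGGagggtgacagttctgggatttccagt
Slfn3: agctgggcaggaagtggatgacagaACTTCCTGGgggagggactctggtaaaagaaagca
Slfn4: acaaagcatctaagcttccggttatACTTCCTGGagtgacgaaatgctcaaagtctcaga
The string spans -74 to -66 in Slfn1, -55 to -47 in Slfn2, -42 to -34 in Slfn3 and -73 to -65 in Slfn4, and the AP-1 letters of Slfn4 span -34 to -28. Of the 4 genes, Slfn1, Slfn2 and Slfn3 rose with R848 in knockout cells and Slfn1 and Slfn2 in wild-type cells, and Slfn4 was not well above background.

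**Figure D2:**
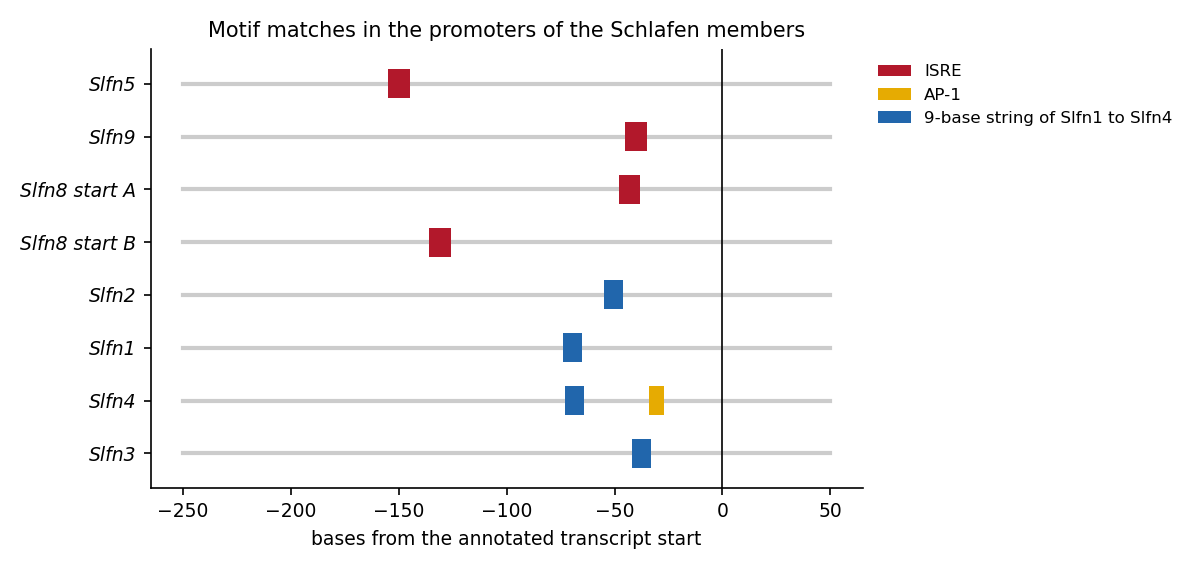
Positions of motif matches in the 8 promoter windows of the 7 Schlafen genes, in bases from the annotated transcript start (vertical line at 0), with each grey line spanning 250 bases before to 50 after it. The ISRE lies in the windows of Slfn5, Slfn8 and Slfn9, and the 9-base string and the 1 AP-1 match lie in those of Slfn1 to Slfn4.

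Slfn1, a short Schlafen known to slow the growth of thymocytes when overexpressed, moved most. It lies on chromosome 11 at chr11:83116820-83122670 (GRCm38.p6). Its probe, for transcript NM_011407, read 2.06 in knockout cells with R848, 0.108 in untreated knockout cells, 0.941 in wild-type cells with R848 and 0.255 in untreated wild-type cells. These are multiples of the 75th percentile. Both R848 arrays were above both untreated arrays, and the knockout held both the highest and the lowest value. Because Slfn1 had the largest response, the 250 bases before its start are shown whole, at chr11:83116570-83116819 on the plus strand, with the shared string in capitals.
Slfn1: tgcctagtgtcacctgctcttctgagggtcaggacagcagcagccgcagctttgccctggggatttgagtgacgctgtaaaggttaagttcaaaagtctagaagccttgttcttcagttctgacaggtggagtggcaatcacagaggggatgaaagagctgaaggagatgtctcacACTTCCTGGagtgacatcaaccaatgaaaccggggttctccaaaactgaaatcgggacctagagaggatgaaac

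Slfn1 thus rose 19.0-fold with R848 in knockout cells and 3.68-fold in wild-type cells. Of the 19840 genes measured in the knockout response, 57 rose more than Slfn1, and 383 of 18762 did so in the wild-type response. Between genotypes Slfn1 was 2.18-fold higher in knockout cells with R848 and 2.36-fold lower in untreated knockout cells. Beside these stood 2.34% of 18768 genes that were higher in the knockout with R848, and 3.18% of 20300 that were lower in the untreated knockout. Under normexp background correction, which adds 50 intensity units to each signal, the untreated difference was -0.44 and that with R848 0.87 on the log2 scale, both below 2-fold, and the knockout response was 2.65 in place of 4.24. The untreated signals of Slfn1 were 28.4 units in knockout cells and 71.0 in wild-type cells, so the added 50 units exceed the knockout signal.

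Slfn3, of the middle group and studied mainly in T cells and gut epithelium, was high on 1 array. It lies at chr11:83191330-83215154. The relative signal of its probe, for NM_011409, was 0.566 in knockout cells with R848, 0.140 in untreated knockout cells, 0.107 in wild-type cells with R848 and 0.126 in untreated wild-type cells. The knockout array with R848 stood alone, and the other 3 lay between 0.107 and 0.140. With R848 Slfn3 rose 4.05-fold in knockout cells, whereas the wild-type difference was -0.24 (log2). The 250 bases before its start, at chr11:83191080-83191329 on the plus strand, are shown for comparison with those of Slfn1, with the shared string in capitals.
Slfn3: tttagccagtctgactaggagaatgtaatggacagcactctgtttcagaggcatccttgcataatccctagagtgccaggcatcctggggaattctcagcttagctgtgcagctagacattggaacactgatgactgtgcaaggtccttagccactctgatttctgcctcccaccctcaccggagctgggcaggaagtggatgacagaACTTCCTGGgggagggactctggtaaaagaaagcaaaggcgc

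That wild-type difference of Slfn3 was larger in size than the median SD of dim repeat probes, 0.146 over 10 probes. It was smaller than the 95th percentile of those SDs, 0.352, which is a percentile of SDs and not of differences. With R848 the gene was 5.31-fold higher in knockout than in wild-type cells, and 43 of 18768 genes had a larger difference in that direction. Without R848 the genotypes differed by 0.15 (log2). Under normexp the knockout response and the genotype difference with R848 were both 1.17 (log2), still past 2-fold. Slfn3 had 1 probe with 1 spot, so its value on the knockout array with R848 rests on that spot. The 112 spots around it, within 5 rows and 5 columns, had a median of -0.13 on that array relative to the mean of the 4 arrays, against 1.65 for the Slfn3 spot itself.

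Slfn2, the second short member, is needed for T cell quiescence and for the survival of monocytes in mice. At chr11:83065112-83070678, it was read by 1 probe, for NM_011408, at 12.4 in knockout cells with R848 and 3.63 in untreated knockout cells, against 10.7 in wild-type cells with R848 and 3.93 in untreated wild-type cells. It rose 3.41-fold in knockout and 2.71-fold in wild-type cells. The genotypes differed by 0.22 with R848 and by -0.11 untreated on the log2 scale, both under 2-fold.

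Slfn5, a long member that in human cells can act as a transcriptional repressor of interferon-induced genes, was read by 5 probes that fell into 2 sets by transcript. It lies at chr11:82951349-82964850. The brightest of its 3 probes for NM_183201 read 30.5 in knockout cells with R848, 6.14 in untreated knockout cells, 19.5 in wild-type cells with R848 and 6.43 in untreated wild-type cells. The 3 probes rose in both genotypes, by 2.14 to 2.31 on the log2 scale in knockout cells and by 1.48 to 1.60 in wild-type cells.

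The other 2 Slfn5 probes belong to transcript ENSMUST00000150687. The brighter of them read 5.26 in knockout cells with R848, 4.09 in untreated knockout cells, 5.05 in wild-type cells with R848 and 3.75 in untreated wild-type cells. Their R848 differences were 0.36 and 0.70 in knockout cells and 0.43 and 0.67 in wild-type cells, all under 2-fold. The gain of the knockout response over that of the wild type was 0.64 to 0.77 at the NM_183201 probes, and -0.07 and 0.03 at the ENSMUST00000150687 probes. The probes of Slfn5 therefore disagreed on the 2-fold call by transcript, and the gene is counted above as risen from its brightest probe. The mean over its 5 probes was 1.55 in knockout and 1.14 in wild-type cells, also past 2-fold.

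Slfn8 and Slfn9 are long members that lie next to each other, Slfn8 at chr11:83002125-83020810 and Slfn9 at chr11:82974316-82991830. The probe of Slfn8 for NM_181545 read 6.17 in knockout cells with R848, 2.56 in untreated knockout cells, 9.08 in wild-type cells with R848 and 4.12 in untreated wild-type cells. The probe for NM_001167743 read 1.17 and 0.374 in knockout cells with and without R848, against 1.07 and 0.491 in wild-type cells. Both probes rose in both genotypes, by 1.27 and 1.64 in knockout cells and by 1.14 and 1.12 in wild-type cells on the log2 scale.

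At its NM_181545 probe Slfn8 was lower in the knockout in both states, at -0.56 (log2) with R848 and -0.69 untreated, which is 1.47-fold and 1.61-fold lower. Its other probe stood at 0.13 with R848 and -0.39 untreated. These genotype differences were all under 2-fold, and the 2 probes differed in sign with R848.

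Slfn9 was read by a bright and a dimmer probe for the same transcript, NM_172796. The bright probe read 30.3 in knockout cells with R848, 28.3 in untreated knockout cells, 32.8 in wild-type cells with R848 and 30.7 in untreated wild-type cells. Its R848 and genotype differences lay between -0.12 and 0.10 on the log2 scale. The dimmer probe read 3.22 in knockout cells with R848, 1.65 in untreated knockout cells, 3.69 in wild-type cells with R848 and 2.14 in untreated wild-type cells. It was 1.95-fold higher with R848 in knockout cells and 1.73-fold higher in wild-type cells, just under the 2-fold line. The pseudogene Slfn10-ps beside Slfn8 showed a similar split, with 0.96 and -0.19 at its 2 probes in knockout cells and 0.94 and 0.12 in wild-type cells. The sequences of the probes are not given in the sources used here, and close copies such as Slfn8, Slfn9 and Slfn10-ps could share hybridisation, which was not tested, so their values are uncertain as to the gene.

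Slfn4, which is induced in activated macrophages and monocytes, lies at chr11:83175172-83190216 and had 1 probe, for NM_011410. It read 3.54 and 2.91 intensity units in knockout cells with and without R848, against 11.8 and 4.64 units in wild-type cells. None of these was well above background, so Slfn4 is counted only in the processing check that uses no filter on dim probes. The probe was found through its transcript in the scanner files, and the result holds for this probe alone.

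**Figure D3:**
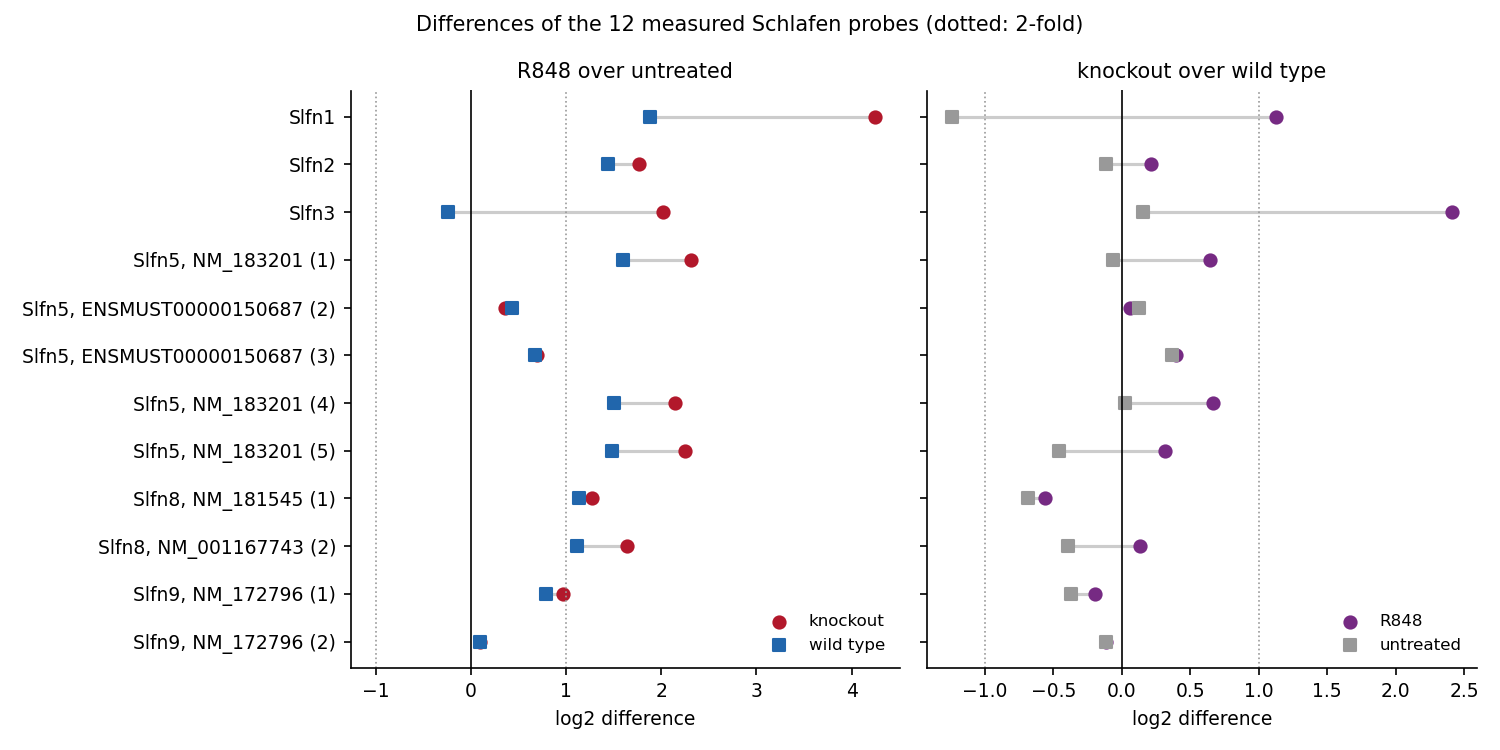
Log2 differences of the 12 measured Schlafen probes, R848 over untreated on the left (circles knockout, squares wild type) and knockout over wild type on the right (circles R848, squares untreated), with dotted lines at 2-fold. Slfn1 and Slfn3 have the widest gaps between the genotypes' responses, and the ENSMUST00000150687 probes of Slfn5 and both Slfn9 probes stay inside the dotted lines on the left.

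The genotype comparisons of the family rested on Slfn1 and Slfn3. With R848, 2 of 6 genes were higher in the knockout and 0 lower, with a median of 0.43, beside 2.34% of 18768 genes higher, 2.45% lower and a median of 0.04 over all of them. Without R848, 0 of 6 were higher and 1, Slfn1, was lower, with a median of -0.12, beside 2.80% of 20300 genes higher, 3.18% lower and a median of 0.06. Slfn1 was the one member past 2-fold in both states, with opposite signs. In the authors' table, which carries 1 scaling factor per array, 486 of 18566 genes were higher and 321 lower in the knockout with R848. The scanner files gave 440 and 459 of 18768 genes, a different set.

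Markers of basophils and mast cells, of monocytes and of granulocytes also differed between the cultures, and the sums for other cell types lay closer together. The summed relative signal of 8 basophil and mast cell markers was 0.828 in knockout cells with R848 and 1.69 in untreated knockout cells, against 10.1 in wild-type cells with R848 and 21.3 in untreated wild-type cells, and 5 of them (Mcpt8, Cpa3, Fcer1a, Ms4a2 and Cd200r3) were not well above background in knockout cells with R848, as was also true of Cpa3 in untreated knockout cells and of Cd200r3 in wild-type cells with R848. For 4 monocyte markers the sums were 24.3 and 16.1 in knockout cells with and without R848, against 73.6 and 52.5 in wild-type cells, and Ccr2 was not well above background in knockout cells with R848. For 10 granulocyte and precursor markers they were 299 and 323 in knockout cells, against 469 and 603 in wild-type cells, with all 10 well above background on each array. For 8 T cell markers, of which 7 were well above background and Cd3g was not on any array, the sums ranged from 15.0 to 15.1 in knockout cells and from 15.7 to 16.7 in wild-type cells. For the 4 dendritic cell markers the sums lay between 36.0 and 38.6 in knockout cells and between 40.9 and 41.8 in wild-type cells, with Xcr1 not well above background in either R848 group. The 4 B cell markers summed to 4.50 to 4.62 in knockout cells and 4.24 to 5.51 in wild-type cells, and the 3 NK cell markers, of which Ncr1 was not well above background on any array and Klrb1c was not in wild-type cells with R848, to 4.62 to 5.29 in knockout cells and 4.95 to 5.00 in wild-type cells. The part of these cells in the Schlafen values was not tested, and fewer cells of a type and less RNA per cell cannot be told apart in these samples.

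The family was next set beside the interferon pathway, from TLR7 to the interferon-stimulated genes, a list of 52 genes. The 6 TLR7 sensing genes, such as the receptor Tlr7 itself, had 0 genes past 2-fold in either response, and Tlr7 stood at -0.20 in knockout and 0.10 in wild-type cells (log2). Of the 5 ligands, 3 were measured in the responses, and Ifnb1, the gene of interferon beta, rose at least 2.77-fold in knockout cells and stood at a bound of at least 1.77-fold in wild-type cells. Ifna1 stood at -0.37 in knockout and 0.09 in wild-type cells, and Ifna5 at -0.26 in knockout and 0.65 in wild-type cells (log2).

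Of 28 interferon-stimulated effectors, 25 rose in knockout cells (median log2 difference 3.06), beside 6.84% of all genes, and 24 in wild-type cells (median 2.19), beside 6.19%. Of these effectors 2, Mx2 and Rsad2, were higher in the knockout with R848, beside 2.34% of all genes, and 11 were lower in the untreated knockout, beside 3.18% of all genes. The median of the 28 was 0.19 with R848 and -0.71 untreated. Irf7, the factor that amplifies interferon production, rose 10.5-fold in knockout and 2.35-fold in wild-type cells and was 5.58-fold lower in untreated knockout cells. Mx1 rose 53.9-fold in knockout and 11.9-fold in wild-type cells, and Ifit1 rose 75.8-fold in knockout and 16.7-fold in wild-type cells. The ubiquitin-like protein gene Isg15 rose by 4.26 in knockout and 3.57 in wild-type cells, and Usp18, whose protein removes Isg15 from its targets, by 3.58 in knockout and 2.72 in wild-type cells (log2). Over the whole list 33 of 50 measured genes rose in knockout cells and 29 of 50 in wild-type cells, and 1, Irf8, fell in both. The response of 13 list genes was at least 2-fold larger on this scale in the knockout, among them Irf7, Ifit1, Mx1 and Rsad2, and that of 0 was at least 2-fold smaller, beside 3.62% and 4.18% of all genes. The Schlafen medians of 1.89 in knockout and 1.29 in wild-type cells lay below those of the effectors.

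**Figure D4:**
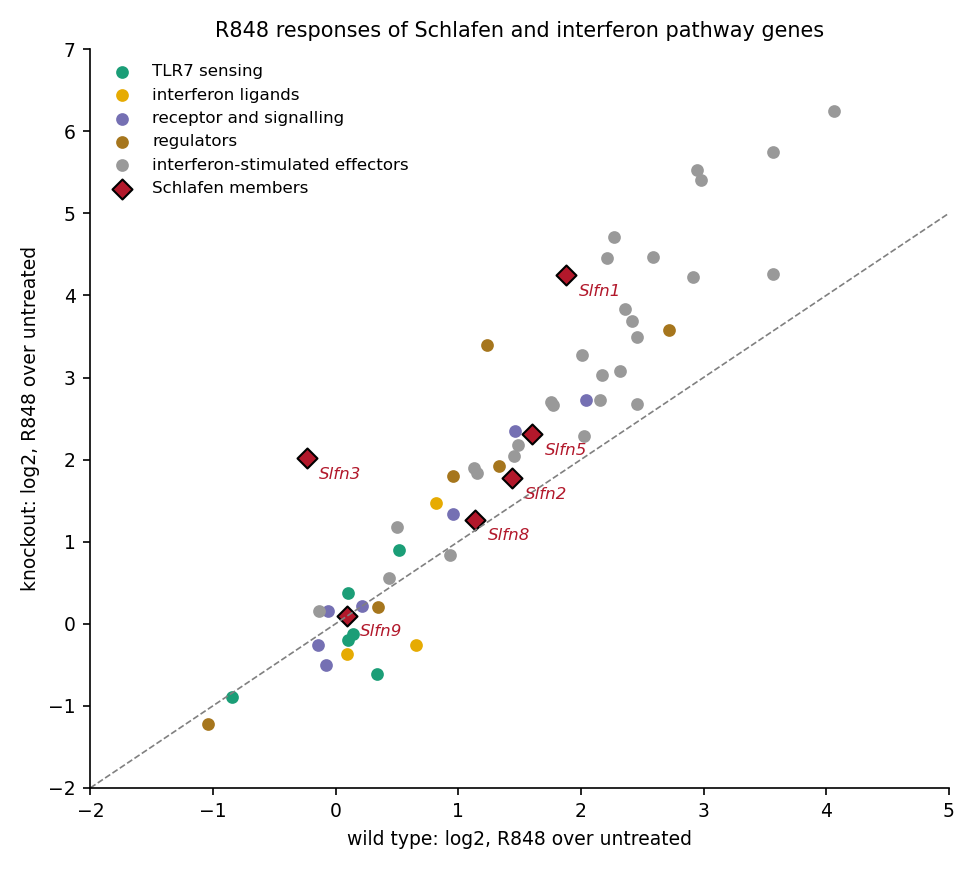
R848 response of the measured interferon pathway genes (dots, coloured by role) and of the 6 measured Schlafen genes at their brightest probe (diamonds), knockout on the vertical and wild type on the horizontal axis, both as log2 of R848 over untreated. Equal responses lie on the dashed line, and lower bounds are drawn for both responses of Ifnb1 and for the knockout response of Ifi44. Slfn1 at 4.24 and 1.88 sits among the effectors that lie above the line, Slfn9 sits near 0, and Slfn3 at 2.02 and -0.24 lies above the line.

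The genes most like each member over the 4 arrays were found among 17133 other genes well above background on all of them, by the Euclidean distance between log2 profiles centred on their own means. With 4 points per gene this likeness is a description, and patterns that these genes share with their member follow from how they were picked. For Slfn1 they were Rsad2 (distance 0.320), Ifit3b (0.455) and Cmpk2 (0.535), each an interferon-stimulated gene. Rsad2, the antiviral enzyme viperin, rose by 4.45 in knockout cells and 2.21 in wild-type cells on the log2 scale. It was higher in the knockout with R848 (1.23) and lower in the untreated knockout (-1.01). For Slfn5 the nearest were Ccrl2 (0.0535), an atypical chemokine receptor, the DNA exonuclease gene Trex1 (0.0944) and the interferon-inducible GTPase gene Irgm1 (0.128).

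Slfn2 lay nearest to Naa25 (0.0642), Ptprj (0.0878) and Trim13 (0.106). The genes nearest to Slfn3 were Esr1 (0.260), the oestrogen receptor alpha, Shisa4 (0.398) and Rbp7 (0.400), which by this choice were highest in knockout cells with R848. Slfn8 lay nearest to Gm4466 (0.124), Orm2 (0.130) and Nolc1 (0.143), and the bright Slfn9 probe to Ptpn5 (0.0178), Pin4 (0.0206) and Sla2 (0.0268), whose R848 differences were all at most 0.10 (log2). Among the members themselves Slfn2 and Slfn5 were closest (0.467) and Slfn1 and Slfn9 farthest apart (3.19).

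The 7 genes lie within 263.8 kb of chromosome 11, at chr11:82951349-83215154, in the order Slfn5, Slfn9, Slfn8, Slfn2, Slfn1, Slfn4 and Slfn3. Of the 5 protein-coding genes on each side, 9 of 10 were measured in the R848 responses. In knockout cells 1 of the 9, Nle1 at 1.24, rose and 0 fell (median 0.12). In wild-type cells 0 rose and 0 fell (median 0.07, from -0.89 for Unc45b to 0.66 for Nle1). Over all genes 6.84% rose and 6.58% fell in knockout cells, and 6.19% rose and 7.01% fell in wild-type cells. With 9 genes, these counts do not set the neighbours apart from all genes. Slfn14, the next family member beyond Slfn3, stood at 0.12 in knockout and 0.22 in wild-type cells. Within the cluster Slfn9, under 2-fold at both probes, lay between Slfn5 and Slfn8, which rose.

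**Figure D5:**
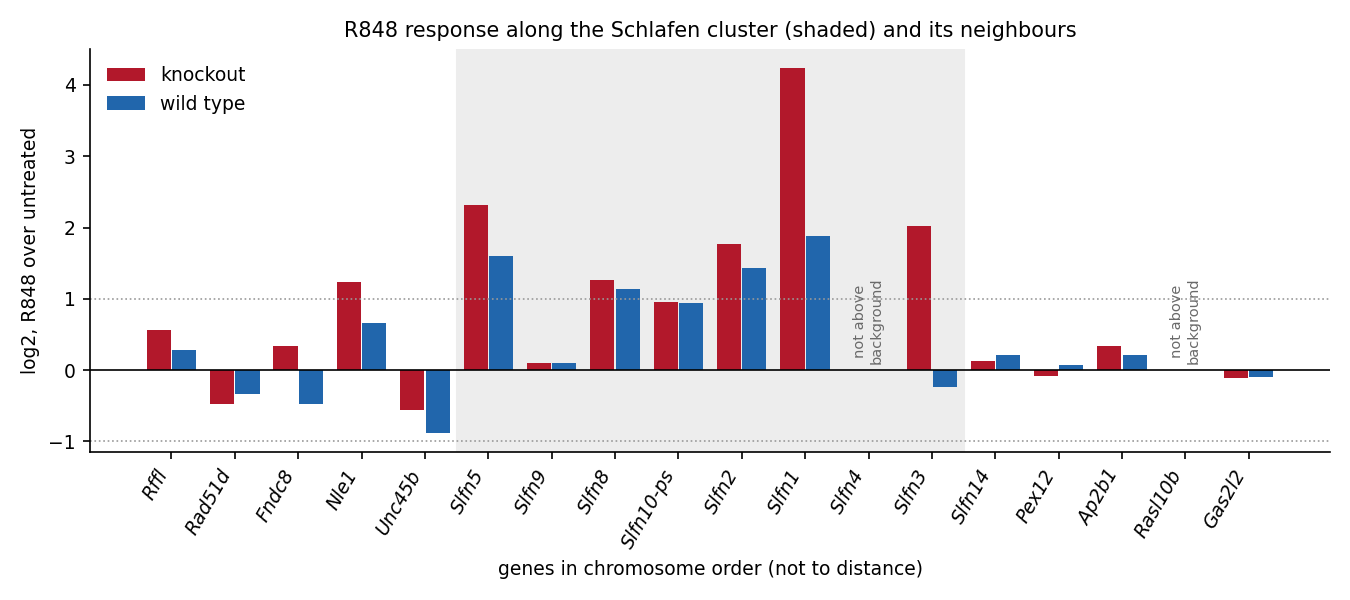
R848 response as log2 of R848 over untreated (bars, knockout and wild type side by side) for the genes of the Schlafen cluster (shaded) and the 5 protein-coding genes on each side, in chromosome order and not to distance, each at its brightest probe. Bars past the dotted 2-fold lines are those of Slfn5, Slfn8, Slfn2, Slfn1 and, in knockout cells alone, Slfn3 and Nle1.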

How the data were processed

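Per the file headers, the spot signals are linear intensity values (software Agilent Feature Extraction, which the submitters' processing notes give as version 11.5.1.1), with background and a spatial trend taken out within each array and none between arrays. A second intensity table that the authors deposited held the same processed signals multiplied by a constant for each array (3.72 to 4.13, 100% of 39374 spots within 1%), set by a rule the sources do not state. Deposited log2 ratios were not used here.

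From the processed signals, log2 values were formed and centred on the 75th percentile of non-control probes, array by array. Outlier spots (70 to 115 per array) were left out, and 0 were saturated. The 0 or 1 spot marks that Feature Extraction deposited with the signals gave the background calls. Each gene is represented by the brightest of its probes that passed on 1 or more arrays, and entered a comparison when it passed on 1 or more of the arrays compared. A dim array took the higher of its own value and the lowest signal well above background, which gives "at least" folds between single arrays. A gene was left out of such a comparison where the dim array was then not the lower. For the difference of responses no gene was left out in this way, and a value resting on a dim array is not always a bound. Probes were named through the authors' table and through transcripts in the RefSeq gene table of GRCm38.p6. All 4 arrays lie on 1 slide. With 1 array per group there was no test, and precision is limited by the number of arrays.

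The members, the gene lists and the naming rule were chosen with earlier results of these data known. The rule names every member, the interferon list by role, the 3 most alike genes of each member and 5 neighbours on each side. The receptor and signalling genes of that list are not reported here one by one. Alternatives were median centring, quantile normalization, normexp (limma 3.58.1, offset 50, on median signals in place of mean signals), the authors' table, 2 other filters on dim probes and the mean over probes.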

Additional observations from a re-analysis of the deposited data

Results flagged for a closer look

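With 1 array per group these differences were not tested. The Slfn1 signal was higher in the knockout with R848 (1.13, log2) and lower in the untreated knockout (-1.24). The signs also differed for Slfn2 (0.22 with R848 and -0.11 untreated) and, at its brightest probe, Slfn5 (0.64 and -0.07), where none of the values reached 2-fold. Of the other 4 Slfn5 probes, 3 had the same sign in both states, and the mean over its probes was 0.42 with R848 and -0.0015 untreated. The dimmer Slfn8 probe differed in sign (0.13 with R848 and -0.39 untreated), and its brighter probe did not (-0.56 and -0.69). The R848 response of Slfn3 was 2.02 in knockout cells and -0.24 in wild-type cells.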

How the results depend on the processing

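No paired analysis was possible because each group has 1 array. Some of the 7 alternatives could not move the member differences, or only slightly. The 12 measured probes passed on all 4 arrays, so the 2 other filters left their values unchanged. The authors' table differs by 1 factor per array, and the mean over probes changes nothing for genes with 1 probe. All 30 member differences kept their direction where they were past 2-fold. Of these, 28 of 30 kept their side of the 2-fold line in each of the 7 alternatives. The exceptions were those of Slfn1 between genotypes, which ranged from -1.33 to -0.44 untreated and from 0.87 to 1.16 with R848. Under normexp the count of members past 2-fold between genotypes was therefore 0 untreated and 1 with R848, and the family medians were 1.47 for the knockout response and 1.20 for that of the wild type. Median centring gave 2.04 and 1.44 for these 2 medians, where the median of all genes stood at 0.09 in knockout and 0.13 in wild-type cells, and quantile normalization gave 1.17 in wild type. With no filter on dim probes, which adds Slfn4 at its own value, the medians were 1.77 for the knockout response, 1.41 for that of the wild type, 0.22 between genotypes with R848 and 0.33 for the difference of responses. Slfn4, on signals not well above background, was then past 2-fold in 3 comparisons, higher in the wild-type response (5 of 7 members higher), and lower in the knockout with R848 and in the difference of responses (2 higher and 1 lower in each). With the mean over probes they were 1.66 for the knockout response, 1.13 for that of the wild type, 0.32 between genotypes with R848, 0.37 for the difference of responses and -0.18 between genotypes untreated. The count of interferon pathway genes lower in the wild-type response was 0 under median centring and with the mean over probes. Over all genes, normexp gave 810 higher and 547 lower in the knockout response (1357 and 1305 without it), 702 and 575 in that of the wild type (1162 and 1316), 104 and 148 between genotypes with R848 (440 and 459), 111 and 219 untreated (569 and 646) and 186 and 159 for the difference of responses (747 and 863). With no filter these counts were 1810 and 2279, 1527 and 2261, 1377 and 839, 1481 and 1179, and 1729 and 1761, taken as listed. Where a probe had to pass on each array of the comparison, they were 259 and 335 between genotypes with R848, 323 and 497 untreated and 409 and 350 for the difference. For the difference of responses the authors' table gave 644 higher and 457 lower among 18761 genes. The scanner files gave 747 and 863 among 20627 genes. The balance of the 2 directions thus turned between different sets of genes, and the parts of the gene set and of the scaling in this were not tested. A single spot per probe on 1 array per group limits what can be read for dim probes such as Slfn3.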
